A study of Mus musculus with 15 samples.

Results

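The genes described here are p53 (Trp53) with its relatives, inhibitors and targets, a list of 37 genes of which 35 were measured, out of 18193 genes read on the array. They were taken by name from a list, and each was read from its brightest probe set, judged by the mean of all arrays. Trp53 itself and Gdf15 were not analysed here. The samples were 15 arrays of whole mouse lung tumours or lung. There were 3 tumours in which Rb, p53 and p130 were all deleted (Δ/Δ, Rb/p53/p130 tumours, numbered 11 to 13), dissected 6 months after an adenovirus carrying Cre recombinase was given through the nose. Another 10 tumours had Rb and p53 deleted (RbΔ/Δ; p53 Δ/Δ, Rb/p53 tumours, numbered 1 to 10), dissected 8 to 12 months after the same infection. The 2 normal lungs came from wild-type adult mice free of tumours. All 13 tumours therefore lack p53 as well as Rb, no tumour with p53 was measured, and the lungs differ from the tumours in tissue and infection as well as in genotype. The loss of p53 and the change of tissue cannot be told apart in any comparison with lung, and both tumour groups were set against the same 2 lungs.

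The transcription factor p53 is held low by Mdm2, which marks it for destruction, and by Mdm4, which blocks its activity. DNA damage and oncogene stress release it, and it then switches on genes for growth arrest, apoptosis, DNA repair, metabolic adjustment and its own feedback, Mdm2 among them. Small cell lung cancer, which this mouse model was built to mirror, is an aggressive neuroendocrine tumour.

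p53 binds DNA as a tetramer, at sites built from pairs of a short half-site. The proximal promoters of the members are shown first, because some carry such a half-site and the members with mitotic roles carry other elements. RefSeq promoters (build GRCm38.p6) were matched by symbol for 29 members, with 40 start sites, and the 250 bases before each start were searched on both strands. A match to the p53 half-site consensus lay before 9 of these 40 starts, in 9 members, while 7.13% of all 32851 promoters held one. The stretches around the match of 8 members follow, 5′ to 3′ on the gene's strand, with the match in capitals and up to 10 bases on each side.
Mdm2: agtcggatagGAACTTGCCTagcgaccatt
Ccng1: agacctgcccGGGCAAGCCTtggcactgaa
Gadd45a: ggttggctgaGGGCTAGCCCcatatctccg
Aen, from its second start: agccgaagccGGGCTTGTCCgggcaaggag
Ei24: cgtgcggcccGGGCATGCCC
Polk: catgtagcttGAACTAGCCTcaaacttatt
Sesn1, from its second start: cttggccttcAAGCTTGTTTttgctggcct
Ckap2: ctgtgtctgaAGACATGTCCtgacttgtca

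The match in Ccng1 ended 176 bases before the start, the one in Mdm2 177 bases and the one in Ckap2 194 bases before it. Elements typical of genes expressed in the G2 and M phases of the cell cycle were searched as well, namely the CHR (cell cycle genes homology region, TTTGAA or TTTAAA) and the CCAAT box (CCAAT). The CHR lay before 11 of the 40 starts, against 25.2% of all promoters, and the CCAAT box before 23, against 33.8%. An E2F site (TTTCCCGC or TTTGGCGC) lay before 0 of the members' starts, against 1.30% of all promoters. No matches of different motifs overlapped. The promoters of the 3 mitotic members follow, with Ccng1 beside them as a target that was lower in the tumours. Capitals mark the p53 half-site in Ckap2 and Ccng1, the CHR in Ckap2 and Gtse1, and the CCAAT box, or its complement ATTGG, in all 4.
Ckap2, chr8:22185820-22186069, minus strand: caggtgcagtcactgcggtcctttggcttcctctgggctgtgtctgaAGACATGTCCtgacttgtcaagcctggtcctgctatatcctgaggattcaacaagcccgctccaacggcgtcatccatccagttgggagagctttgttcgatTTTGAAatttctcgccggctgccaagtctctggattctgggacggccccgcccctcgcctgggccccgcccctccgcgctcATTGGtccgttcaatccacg
Gtse1, first start, chr15:85859457-85859706, plus strand: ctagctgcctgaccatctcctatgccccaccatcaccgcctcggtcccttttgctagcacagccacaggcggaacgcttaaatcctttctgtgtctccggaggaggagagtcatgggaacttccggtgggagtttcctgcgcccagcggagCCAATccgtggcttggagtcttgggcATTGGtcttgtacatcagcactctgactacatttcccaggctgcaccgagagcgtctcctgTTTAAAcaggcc
Psrc1, first start, chr3:108383554-108383803, plus strand: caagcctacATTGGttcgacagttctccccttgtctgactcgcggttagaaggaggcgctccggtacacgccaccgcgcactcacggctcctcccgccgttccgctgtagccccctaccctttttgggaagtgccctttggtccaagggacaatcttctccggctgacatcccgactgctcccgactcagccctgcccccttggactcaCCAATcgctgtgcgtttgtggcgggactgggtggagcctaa
Ccng1, chr11:40755287-40755536, minus strand: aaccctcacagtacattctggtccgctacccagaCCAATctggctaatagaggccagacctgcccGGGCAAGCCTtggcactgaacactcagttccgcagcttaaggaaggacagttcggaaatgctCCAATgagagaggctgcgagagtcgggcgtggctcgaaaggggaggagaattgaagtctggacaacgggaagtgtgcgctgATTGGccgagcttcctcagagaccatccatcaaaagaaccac

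A match describes these letters and is not evidence of binding. Ckap2 held a half-site, a CHR and a CCAAT box together, Gtse1 held a CHR and CCAAT boxes without a half-site, and in Psrc1 the CCAAT box was found without the others.

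Levels are log2 values made with RMA, and array medians lay between 6.58 and 6.68. A change counted as called when limma's p-value, adjusted by Benjamini-Hochberg over all probe sets, was under 0.05. Separate animals are not stated for the arrays of a group, so the errors may in part be technical, and the small number of arrays limits the precision. The tissue labels were checked first. All 8 measured neuroendocrine markers were higher in both tumour groups than in normal lung. The mean of 13 proliferation genes lay between 10.84 and 11.16 in Rb/p53/p130 tumours and between 10.30 and 11.68 in Rb/p53 tumours, against 6.21 and 6.42 in normal lung. The mean of 17 markers of endothelium and alveolar type 1 cells (resident lung mean) lay between 7.97 and 8.24 in Rb/p53/p130 tumours and between 6.89 and 9.29 in Rb/p53 tumours, against 11.68 and 12.15 in normal lung. The Gapdh control probe sets at the 3' and the 5' end differed by -0.03 to 0.08 in Rb/p53/p130 tumours and by -0.07 to 0.36 in Rb/p53 tumours, against 0.72 and 0.88 in normal lung. A mean of 6 hepatocyte genes reached 10.68 in Rb/p53/p130 tumour 12 and 8.32 in Rb/p53 tumour 2, while the other tumours lay between 5.94 and 6.97 and the lungs at 5.32 and 5.45. Of the targeted genes, Rb1 averaged 11.76 in Rb/p53/p130 tumours and 11.50 in Rb/p53 tumours, against 10.20 in normal lung. Rbl2 (p130) averaged 8.61 in Rb/p53/p130 tumours and 8.66 in Rb/p53 tumours, against 9.57 in normal lung. The positions of these probe sets against the deleted exons are unknown here, so they check no genotype.

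Against normal lung the p53 targets moved both ways. In Rb/p53 tumours 5 of the 35 members were higher and 11 lower, where 38.8% of all genes were called (18.3% higher and 20.5% lower). In Rb/p53/p130 tumours 5 were higher and 9 lower, where 30.9% of all genes were called (15.3% higher and 15.6% lower). The share of members called, 40% in Rb/p53/p130 tumours and 45.7% in Rb/p53 tumours, was not far above that of all genes. When only probe sets brighter than the median were fitted, 39.6% of genes were called in Rb/p53/p130 tumours and 49.2% in Rb/p53 tumours. The members' shares above come from the main fit of all 35, dim members included, so they are not like for like with these. All 5 higher members were shared by both tumour groups, namely Ckap2, Psrc1, Gtse1, Ddit4 and Ddb2. The 9 lower in both were Dcxr, Fas, Ccng1, Plk2, Phlda3, Xpc, Ercc5, Sesn1 and Steap3, while Perp and Polk passed the test in Rb/p53 tumours alone. Arrays of tumours and lungs did not overlap for 10 higher and 17 lower members in Rb/p53/p130 tumours, where 66% of all genes did not, and for 5 higher and 11 lower members in Rb/p53 tumours, where 38.4% did not. The median change of the members was -0.19 in Rb/p53/p130 tumours and -0.21 in Rb/p53 tumours, while the median over all genes was -0.02 in each group. The 3 mitotic members pulled the list upwards. Without them 2 of 32 members were higher and 11 lower in Rb/p53 tumours, with a median of -0.25, and 2 higher and 9 lower in Rb/p53/p130 tumours, with a median of -0.28. In whole tissue, fewer cells of a type and less RNA per cell cannot be told apart. The part of the lost lung cells in the lower members was not tested. When the Gapdh difference, which separated lungs from tumours, was added to the model, Ckap2 alone of the members was still called in either tumour group, and 5.17% of all genes were called in Rb/p53/p130 tumours and 6.08% in Rb/p53 tumours. All errors widened. In Rb/p53 tumours some changes stayed about as large, such as Ccng1 at -1.40 ± 0.59, Gtse1 at 1.38 ± 0.52 and Dcxr at -3.22 ± 1.05 (SE). Others shrank, such as Fas to -2.28 ± 0.72, Xpc to -0.64 ± 0.50 and Ercc5 to -0.36 ± 0.37 (SE). That of Polk grew to -1.51 ± 0.44, and that of Sesn1 went to 0.04 ± 0.57 (SE).

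With only 2 lungs, single arrays decided part of these calls. Ckap2, Psrc1, Gtse1, Ccng1, Dcxr, Ercc5 and Fas were called in both tumour groups whichever array was left out, and so were Ddit4 and Xpc in Rb/p53 tumours. Without normal lung 1, 3 members were higher and 4 lower in Rb/p53/p130 tumours, and without normal lung 2, 4 were lower. In Rb/p53 tumours 6 were lower without either of the lungs. The share of all genes called fell as well, to 20.1% in Rb/p53/p130 tumours and 25.3% in Rb/p53 tumours without normal lung 1, and to 21.7% in Rb/p53/p130 tumours and 25.9% in Rb/p53 tumours without normal lung 2. Plk2 and Sesn1 lost their call in both tumour groups without either lung, Ddb2 likewise, and Perp and Polk in Rb/p53 tumours. Phlda3 lost its call in Rb/p53 tumours without normal lung 2, and Steap3 without normal lung 1. In Rb/p53/p130 tumours 5 members were lower without tumour 11 or without tumour 12, and the calls of Phlda3, Plk2, Sesn1, Steap3, Xpc, Ddb2 and Ddit4 there each depended on at least 1 array. Each change kept its sign in these fits.

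**Figure D1:**
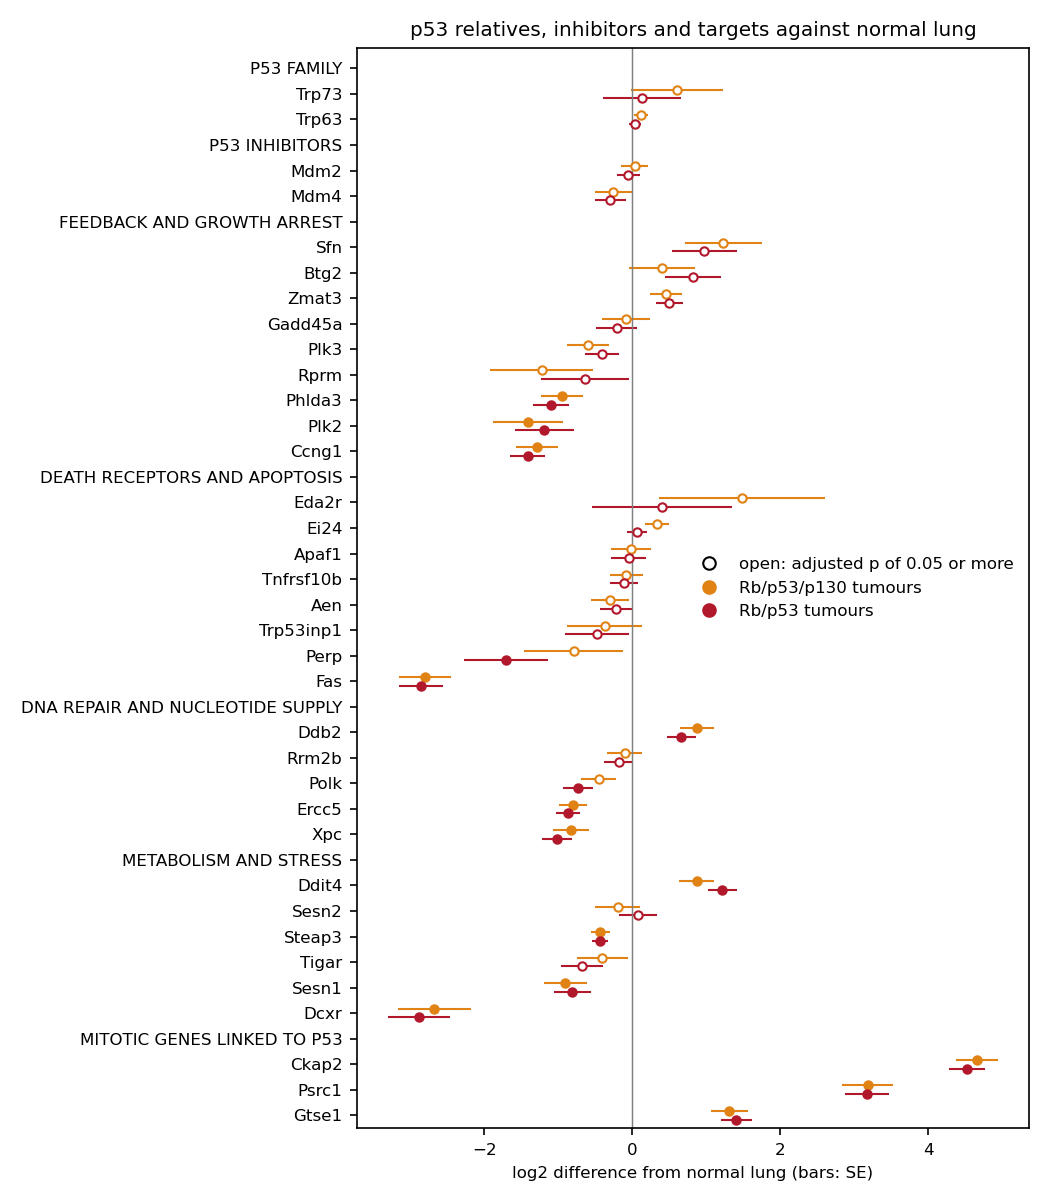
Log2 difference from normal lung (x axis) of the 35 measured members, grouped by role, for 3 Rb/p53/p130 tumours (orange, upper point of each gene) and 10 Rb/p53 tumours (red, lower point), each against the same 2 normal lungs. Bars are limma's SE, and filled points have an adjusted p under 0.05. Ckap2 and Psrc1 lie farthest to the right, and Fas and Dcxr farthest to the left.

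**Figure D2:**
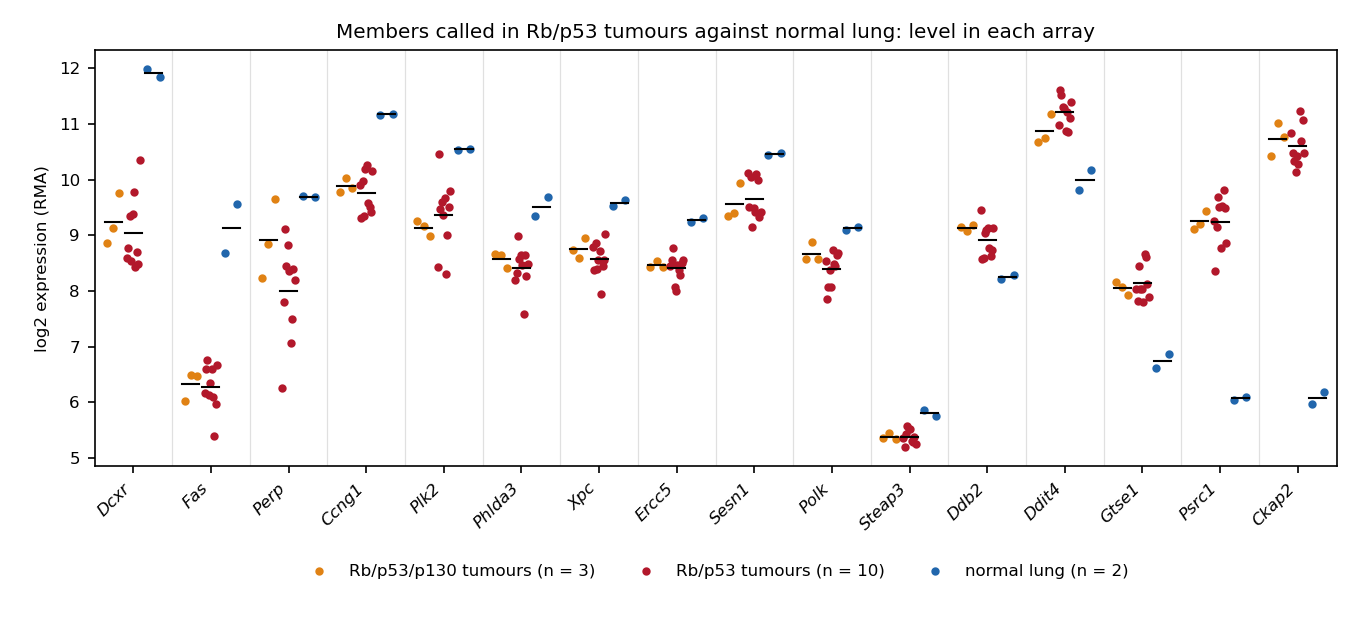
Log2 level (y axis) in every array for the 16 members called in Rb/p53 tumours against normal lung, ordered from the deepest fall to the highest rise. Points are arrays of Rb/p53/p130 tumours (orange), Rb/p53 tumours (red) and normal lung (blue), and black lines are group means. For each of the 16, no Rb/p53 tumour overlaps the lungs.

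Among p53's relatives and inhibitors no member was called. Trp63, which directs the growth of stratified epithelium, read 5.15, 5.08 and 5.00 in Rb/p53/p130 tumours and between 4.93 and 5.09 (median 4.98) in Rb/p53 tumours, against 4.96 and 4.94 in normal lung. These readings stayed near 5.05, the highest lower quartile of any array, so they are not shown to be above background. Trp73, which can activate many p53 targets, read 7.68, 8.42 and 8.11 in Rb/p53/p130 tumours and between 6.42 and 9.02 (median 7.58) in Rb/p53 tumours, against 7.76 and 7.16 in normal lung. The Rb/p53 tumours lay on both sides of the lungs, and the changes of 0.61 ± 0.62 and 0.14 ± 0.53 (SE) in Rb/p53/p130 and Rb/p53 tumours were within error (limma adjusted p = 0.541 and 0.880).

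Mdm2, the ubiquitin ligase that degrades p53 and itself a p53 target, read 10.25, 10.21 and 10.22 in Rb/p53/p130 tumours and between 9.77 and 10.49 (median 10.12) in Rb/p53 tumours, against 10.26 and 10.13 in normal lung. The groups overlapped, and the changes of 0.03 ± 0.18 in Rb/p53/p130 tumours and -0.05 ± 0.15 in Rb/p53 tumours (SE) were not called (limma adjusted p = 0.928 and 0.840). Mdm4 read 9.59, 9.61 and 9.84 in Rb/p53/p130 tumours and between 9.14 and 10.12 (median 9.57) in Rb/p53 tumours, against 10.00 and 9.88 in normal lung. Its changes of -0.26 ± 0.25 in Rb/p53/p130 tumours and -0.30 ± 0.21 in Rb/p53 tumours (SE) were not called (limma adjusted p = 0.516 and 0.324). A dimmer Mdm4 probe set went the other way in Rb/p53 tumours, by 0.46 ± 0.14 (SE, limma adjusted p = 0.0219), so the direction for Mdm4 depends on the probe set.

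Of the 9 feedback and growth arrest genes 0 were higher and 3 lower, in both tumour groups. That share of 33.3% stood beside 30.9% of all genes called in Rb/p53/p130 tumours and 38.8% in Rb/p53 tumours. Ccng1, a cyclin that recruits a phosphatase to Mdm2, read 9.78, 10.02 and 9.86 in Rb/p53/p130 tumours and between 9.31 and 10.26 (median 9.74) in Rb/p53 tumours, against 11.17 and 11.18 in normal lung. Every tumour lay below both lungs, 2.44-fold lower in Rb/p53/p130 tumours and 2.66-fold lower in Rb/p53 tumours (log2 changes -1.29 ± 0.28 and -1.41 ± 0.24, SE, limma adjusted p = 0.00338 and 0.000332). Its other 2 probe sets were also called lower in Rb/p53 tumours, by 1.48 and 1.11 on the log2 scale. Plk2, a stress-induced polo-like kinase, read 9.25, 9.18 and 8.99 in Rb/p53/p130 tumours and between 8.30 and 10.46 (median 9.49) in Rb/p53 tumours, against 10.54 and 10.55 in normal lung. Its fall was 2.65-fold in Rb/p53/p130 tumours and 2.27-fold in Rb/p53 tumours (limma adjusted p = 0.0400 and 0.0338), and the highest Rb/p53 tumour, number 2, came close to the lungs. Phlda3, which restrains Akt, read 8.66, 8.64 and 8.41 in Rb/p53/p130 tumours and between 7.59 and 8.98 (median 8.48) in Rb/p53 tumours, against 9.35 and 9.68 in normal lung. It was 1.93-fold lower in Rb/p53/p130 tumours and 2.14-fold lower in Rb/p53 tumours (limma adjusted p = 0.0255 and 0.00285), with no overlap between tumours and lungs.

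The other 6 genes of that role did not pass the test. Sfn (14-3-3 sigma), which holds cyclin B and its kinase in the cytoplasm, read 7.70, 7.98 and 7.55 in Rb/p53/p130 tumours and between 6.48 and 8.43 (median 7.57) in Rb/p53 tumours, against 6.66 and 6.36 in normal lung. Its changes were 1.23 ± 0.52 in Rb/p53/p130 tumours and 0.98 ± 0.44 in Rb/p53 tumours (SE, limma adjusted p = 0.103 and 0.110). Btg2, an antiproliferative gene, read 11.39, 11.44 and 12.00 in Rb/p53/p130 tumours and between 10.93 and 12.68 (median 12.21) in Rb/p53 tumours, against 11.41 and 11.00 in normal lung. Both sets of tumours overlapped the lungs, and the changes of 0.40 ± 0.44 in Rb/p53/p130 tumours and 0.82 ± 0.38 in Rb/p53 tumours (SE) were not called (limma adjusted p = 0.579 and 0.115). Without Rb/p53 tumour 7, its lowest, the change in Rb/p53 tumours was called at 0.94 (limma adjusted p = 0.0296). The RNA-binding protein Zmat3 changed by 0.46 in Rb/p53/p130 tumours and 0.50 in Rb/p53 tumours (limma adjusted p = 0.149 and 0.0518), and passed in Rb/p53 tumours without tumour 2, 4, 7 or 9. The damage-induced Gadd45a changed by -0.08 in Rb/p53/p130 tumours and -0.21 in Rb/p53 tumours. The stress kinase Plk3 changed by -0.60 in Rb/p53/p130 tumours and -0.41 in Rb/p53 tumours, and Rprm, a G2 arrest gene, by -1.22 in Rb/p53/p130 tumours and -0.64 in Rb/p53 tumours, and none of these 3 passed.

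Among 8 genes of death receptors and apoptosis 0 were higher in either group, 1 was lower in Rb/p53/p130 tumours and 2 were lower in Rb/p53 tumours. These shares, 12.5% in Rb/p53/p130 tumours and 25% in Rb/p53 tumours, lay below the 30.9% and 38.8% of all genes called in the same comparisons. Fas, the death receptor of the extrinsic pathway, read 6.03, 6.49 and 6.47 in Rb/p53/p130 tumours and between 5.39 and 6.76 (median 6.25) in Rb/p53 tumours, against 8.68 and 9.56 in normal lung. It was 6.95-fold lower in Rb/p53/p130 tumours and 7.22-fold lower in Rb/p53 tumours (log2 changes -2.80 ± 0.35 and -2.85 ± 0.30, SE, limma adjusted p = 3.76e-05 and 4.38e-06). The highest tumour lay well below the lower of the lungs. Perp, a membrane protein of desmosomes and of apoptosis, read 8.24, 8.84 and 9.66 in Rb/p53/p130 tumours and between 6.25 and 9.11 (median 8.28) in Rb/p53 tumours, against 9.70 and 9.69 in normal lung. All 13 tumours were below the lungs, though Rb/p53/p130 tumour 13 only just. The change was -0.79 ± 0.67 in Rb/p53/p130 tumours and -1.70 ± 0.57 in Rb/p53 tumours (SE, limma adjusted p = 0.448 and 0.0320), and the difference between the tumour groups, 0.92 ± 0.48, was itself not called (limma adjusted p = 0.564). Without Rb/p53 tumour 2 and Rb/p53/p130 tumour 12, the pair highest in hepatocyte genes, Perp no longer passed in Rb/p53 tumours (change -1.68, limma adjusted p = 0.0563).

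The receptor Eda2r was the most variable member. It read 6.19, 7.21 and 7.36 in Rb/p53/p130 tumours and between 4.23 and 8.75 (median 5.23) in Rb/p53 tumours, against 5.46 and 5.41 in normal lung. Its SD over the 10 Rb/p53 tumours, 1.53, stood at percentile 99.25 of all genes, and its changes of 1.48 ± 1.12 in Rb/p53/p130 tumours and 0.40 ± 0.95 in Rb/p53 tumours (SE) were not called (limma adjusted p = 0.387 and 0.793). Trp53inp1, which promotes autophagy and p53 phosphorylation, read 11.64, 11.89 and 12.01 in Rb/p53/p130 tumours and between 10.53 and 12.70 (median 11.80) in Rb/p53 tumours, against 12.25 and 12.18 in normal lung. The Rb/p53 tumours spread around the lungs, and the changes of -0.37 ± 0.51 in Rb/p53/p130 tumours and -0.48 ± 0.43 in Rb/p53 tumours (SE) were not called (limma adjusted p = 0.667 and 0.451). The nuclease gene Aen read 8.41, 8.32 and 8.40 in Rb/p53/p130 tumours and between 7.94 and 8.92 (median 8.48) in Rb/p53 tumours, against 8.69 and 8.65 in normal lung. Its changes of -0.30 in Rb/p53/p130 tumours and -0.21 in Rb/p53 tumours were not called. Apaf1, the core of the apoptosome, changed by -0.01 in Rb/p53/p130 tumours and -0.05 in Rb/p53 tumours. Ei24, a protein of the endoplasmic reticulum linked to autophagy, changed by 0.34 in Rb/p53/p130 tumours and 0.06 in Rb/p53 tumours. The death receptor Tnfrsf10b, near background in all groups, changed by -0.08 in Rb/p53/p130 tumours and -0.11 in Rb/p53 tumours, and none of these 3 passed.

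Of the 5 genes for DNA repair and nucleotide supply, 1 was higher in both groups, 2 were lower in Rb/p53/p130 tumours and 3 were lower in Rb/p53 tumours. Of all genes 30.9% were called in Rb/p53/p130 tumours and 38.8% in Rb/p53 tumours. Xpc and Ddb2 both recognise damage for nucleotide excision repair, and they went opposite ways. Xpc read 8.73, 8.60 and 8.95 in Rb/p53/p130 tumours and between 7.94 and 9.03 (median 8.55) in Rb/p53 tumours, against 9.52 and 9.64 in normal lung. Ddb2 read 9.14, 9.07 and 9.18 in Rb/p53/p130 tumours and between 8.57 and 9.45 (median 8.91) in Rb/p53 tumours, against 8.22 and 8.28 in normal lung. Every tumour was below both lungs for Xpc and above both for Ddb2. Xpc was 1.77-fold lower in Rb/p53/p130 tumours and 2.02-fold lower in Rb/p53 tumours (limma adjusted p = 0.0223 and 0.00152), and Ddb2 was 1.84-fold higher in Rb/p53/p130 tumours and 1.58-fold higher in Rb/p53 tumours (limma adjusted p = 0.0107 and 0.0162). The second probe set of Ddb2, which changed by 0.36 in Rb/p53/p130 tumours and 0.24 in Rb/p53 tumours, was not called.

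Ercc5, an endonuclease of the same repair pathway, read 8.43, 8.54 and 8.43 in Rb/p53/p130 tumours and between 8.00 and 8.78 (median 8.46) in Rb/p53 tumours, against 9.23 and 9.31 in normal lung. All tumours lay below the lungs, and the fall was 1.74-fold in Rb/p53/p130 tumours and 1.82-fold in Rb/p53 tumours (limma adjusted p = 0.00582 and 0.000719). Polk, a polymerase that copies past damaged bases, read 8.57, 8.87 and 8.57 in Rb/p53/p130 tumours and between 7.85 and 8.73 (median 8.46) in Rb/p53 tumours, against 9.09 and 9.15 in normal lung. The change was -0.45 ± 0.24 in Rb/p53/p130 tumours and -0.73 ± 0.20 in Rb/p53 tumours (SE, limma adjusted p = 0.191 and 0.0111). Rrm2b, the p53-induced subunit of ribonucleotide reductase, read 9.57, 9.66 and 9.68 in Rb/p53/p130 tumours and between 9.19 and 10.07 (median 9.51) in Rb/p53 tumours, against 9.55 and 9.93 in normal lung. Its groups overlapped and its changes of -0.10 in Rb/p53/p130 tumours and -0.18 in Rb/p53 tumours were not called.

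Of 6 measured genes of metabolism and stress, 1 was higher and 3 were lower in each tumour group, where 30.9% of all genes were called in Rb/p53/p130 tumours and 38.8% in Rb/p53 tumours. Dcxr, a reductase of the uronate cycle, read 8.86, 9.13 and 9.76 in Rb/p53/p130 tumours and between 8.43 and 10.35 (median 8.74) in Rb/p53 tumours, against 11.99 and 11.85 in normal lung. With a fall of 6.37-fold in Rb/p53/p130 tumours and 7.37-fold in Rb/p53 tumours (log2 changes -2.67 ± 0.50 and -2.88 ± 0.42, SE, limma adjusted p = 0.00108 and 0.000101), it stood beside Fas at the bottom of the list. Ddit4 (REDD1), an inhibitor of mTORC1 also induced by hypoxia, read 10.67, 10.75 and 11.18 in Rb/p53/p130 tumours and between 10.86 and 11.61 (median 11.26) in Rb/p53 tumours, against 9.82 and 10.18 in normal lung. It was 1.83-fold higher in Rb/p53/p130 tumours and 2.33-fold higher in Rb/p53 tumours (limma adjusted p = 0.0121 and 0.000225), and all tumours lay above the lungs.

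Sesn1, a sestrin that restrains mTORC1, read 9.35, 9.40 and 9.94 in Rb/p53/p130 tumours and between 9.15 and 10.11 (median 9.49) in Rb/p53 tumours, against 10.45 and 10.48 in normal lung. It was 1.87-fold lower in Rb/p53/p130 tumours and 1.75-fold lower in Rb/p53 tumours (limma adjusted p = 0.0372 and 0.0228), with every tumour below the lungs. A second Sesn1 probe set was also called lower in Rb/p53 tumours, by 1.22 on the log2 scale. No other Sesn1 probe set was called in Rb/p53/p130 tumours. The dimmest, near background, rose by 0.21 in Rb/p53/p130 tumours and 0.36 in Rb/p53 tumours, uncalled. The paralog Sesn2 changed by -0.19 in Rb/p53/p130 tumours and 0.08 in Rb/p53 tumours and was not called. Steap3, a ferrireductase, read 5.35, 5.45 and 5.34 in Rb/p53/p130 tumours and between 5.19 and 5.57 (median 5.36) in Rb/p53 tumours, against 5.87 and 5.75 in normal lung. This small fall of 1.35-fold in each group passed (limma adjusted p = 0.0219 and 0.00640) at a level not far above the lower quartile. Tigar, which lowers glycolytic flux, read 7.62, 7.56 and 7.46 in Rb/p53/p130 tumours and between 6.70 and 8.26 (median 7.28) in Rb/p53 tumours, against 8.12 and 7.77 in normal lung. Its changes of -0.40 in Rb/p53/p130 tumours and -0.68 in Rb/p53 tumours were not called (limma adjusted p = 0.450 and 0.0899), and without Rb/p53 tumour 3, its highest, the fall in Rb/p53 tumours passed (limma adjusted p = 0.00884).

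All 3 mitotic members were higher in both tumour groups, where 15.3% of all genes were called higher in Rb/p53/p130 tumours and 18.3% in Rb/p53 tumours. Ckap2, a spindle protein, read 10.42, 11.02 and 10.76 in Rb/p53/p130 tumours and between 10.15 and 11.23 (median 10.48) in Rb/p53 tumours, against 5.96 and 6.19 in normal lung. The gap was wider than for any other member, 25.3-fold in Rb/p53/p130 tumours and 23.0-fold in Rb/p53 tumours (log2 change 4.66 ± 0.29 and 4.53 ± 0.24, SE, limma adjusted p = 4.18e-08 and 6.45e-09). Psrc1, a microtubule regulator described as responsive to p53, read 9.12, 9.20 and 9.44 in Rb/p53/p130 tumours and between 8.36 and 9.82 (median 9.38) in Rb/p53 tumours, against 6.04 and 6.09 in normal lung. It was 9.09-fold higher in Rb/p53/p130 tumours and 9.02-fold higher in Rb/p53 tumours (limma adjusted p = 8.48e-06 and 1.14e-06). Gtse1, a microtubule-binding protein that carries p53 out of the nucleus in G2, read 8.15, 8.07 and 7.93 in Rb/p53/p130 tumours and between 7.81 and 8.67 (median 8.04) in Rb/p53 tumours, against 6.62 and 6.87 in normal lung. It was 2.48-fold higher in Rb/p53/p130 tumours and 2.65-fold higher in Rb/p53 tumours (limma adjusted p = 0.00127 and 0.000125). The 13 proliferation genes, higher by a median of 4.77 in Rb/p53/p130 tumours and 4.61 in Rb/p53 tumours on the log2 scale, were all called as well. Their part in the rise of these 3 members was not tested.

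Between the tumour genotypes, Rb/p53/p130 against Rb/p53, none of the 35 members was called by limma (0 higher and 0 lower), where 0.0715% of all genes were. For 0 members did the genotypes not overlap, where 1.97% of all genes did not. The median change was 0.08, and 1 member, Ei24 with 0.27 ± 0.11 (SE), had an unadjusted p under 0.05 (limma adjusted p = 0.426). Of all 18193 genes 1321 had an unadjusted p under 0.05. The widest differences were those of Eda2r, by 1.08 ± 0.81, Perp, by 0.92 ± 0.48, and Rprm, by -0.58 ± 0.50 (SE), none of which passed (limma adjusted p = 0.726, 0.564 and 0.774). With 3 tumours in 1 group the arrays could have missed differences of this size. The Rb/p53/p130 tumours were dissected at 6 months and the Rb/p53 tumours at 8 to 12 months. Genotype and time after infection therefore cannot be told apart in this comparison.

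The p53 pathway outside the members was read from a list of 16 further targets, 13 of them measured, and a list of 20 upstream kinases and cofactors, all measured. Among the targets 2 were higher and 5 lower in Rb/p53/p130 tumours, and 3 were higher and 5 lower in Rb/p53 tumours. That is 53.8% called in Rb/p53/p130 tumours and 61.5% in Rb/p53 tumours, beside 30.9% and 38.8% of all genes. In the fit of only probe sets brighter than the median, 39.6% and 49.2% of genes were called in these groups. The targets' shares come from the main fit without that filter, so the 2 are not like for like. The lower targets included Pltp, a phospholipid transfer protein (log2 change -3.96 ± 0.36 in Rb/p53/p130 tumours and -3.62 ± 0.31 in Rb/p53 tumours, SE). Another was Pmaip1 (Noxa), a killer of the Bcl-2 family, with -2.55 ± 0.34 in Rb/p53/p130 tumours and -3.18 ± 0.29 in Rb/p53 tumours. The epoxide hydrolase Ephx1 changed by -2.53 ± 0.66 in Rb/p53/p130 tumours and -3.00 ± 0.56 in Rb/p53 tumours. The ephrin receptor Epha2 changed by -1.79 ± 0.56 in Rb/p53/p130 tumours and -2.14 ± 0.47 in Rb/p53 tumours. Cdkn1a (p21), the classical arrest gene downstream of p53, was named after its values were seen. It read 11.74, 12.09 and 11.88 in Rb/p53/p130 tumours and between 11.14 and 12.48 (median 11.45) in Rb/p53 tumours, against 10.53 and 10.63 in normal lung. All tumours lay above the lungs, by 2.50-fold in Rb/p53/p130 tumours and 2.01-fold in Rb/p53 tumours (limma adjusted p = 0.00320 and 0.00496).

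Among the upstream genes 4 were higher and 2 lower in Rb/p53/p130 tumours, and 6 were higher and 4 lower in Rb/p53 tumours. The share called was 30% in Rb/p53/p130 tumours and 50% in Rb/p53 tumours, beside 30.9% and 38.8% of all genes. Cdkn2a, whose Arf product blocks Mdm2, read 11.35, 11.65 and 11.18 in Rb/p53/p130 tumours and between 10.84 and 12.18 (median 11.35) in Rb/p53 tumours, against 5.55 and 6.00 in normal lung. Its rise of 49.0-fold in Rb/p53/p130 tumours and 49.6-fold in Rb/p53 tumours was larger than that of any measured member, but its probe set is not assigned here to Arf or to Ink4a, which the same gene encodes. The checkpoint kinase Chek1 was 23.0-fold higher in Rb/p53/p130 tumours and 17.4-fold higher in Rb/p53 tumours. Ppm1d, a phosphatase that switches p53 signalling off, was 3.17-fold higher in Rb/p53/p130 tumours and 2.71-fold higher in Rb/p53 tumours. Trp53bp2, which steers p53 towards apoptotic targets, was 2.61-fold lower in Rb/p53/p130 tumours and 2.54-fold lower in Rb/p53 tumours. Each of these 4 passed in both groups (limma adjusted p from 2.21e-08 to 0.000219 in Rb/p53/p130 tumours and from 3.07e-09 to 0.000126 in Rb/p53 tumours). Of all 33 measured pathway genes none was called between the tumour genotypes by limma (0 higher and 0 lower), where 0.0715% of all genes were. An unadjusted p under 0.05 was found for 4 of them and for 1321 of all 18193 genes. The genotypes did not overlap for 1 pathway gene, Crebbp (change -0.44 ± 0.11, SE, limma adjusted p = 0.144), where 1.97% of all genes did not.

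Across the 10 Rb/p53 tumours the members had a median SD of 0.354 against 0.284 for all genes, which were not matched for level. The members did not move as one. Over the 595 pairs of members the median r was 0.02, with a range from -0.83 (Sfn and Sesn1) to 0.86 (Btg2 and Plk2), given as a description of 10 arrays. Within roles the median r was 0.51 for the 3 mitotic pairs, 0.40 for the 10 pairs of DNA repair genes and 0.15 for the 36 pairs of feedback and arrest genes. It was 0.12 for the 28 pairs of death receptor and apoptosis genes and -0.03 for the 15 pairs of metabolism and stress genes. Tumour 2 held the highest level of 9 members and the lowest of 9, while it was highest in 11.5% and lowest in 10.8% of all genes. Its highest members were Gadd45a, Sesn2, Ddit4, Plk2, Plk3, Mdm4, Apaf1 and, near background, Trp63 and Tnfrsf10b. Its lowest were Ccng1, Zmat3, Ddb2, Psrc1, Trp73, Polk, Rrm2b, Tigar and Steap3. This is the Rb/p53 tumour whose hepatocyte genes were highest, and the part of those cells in these levels was not tested.

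**Figure D3:**
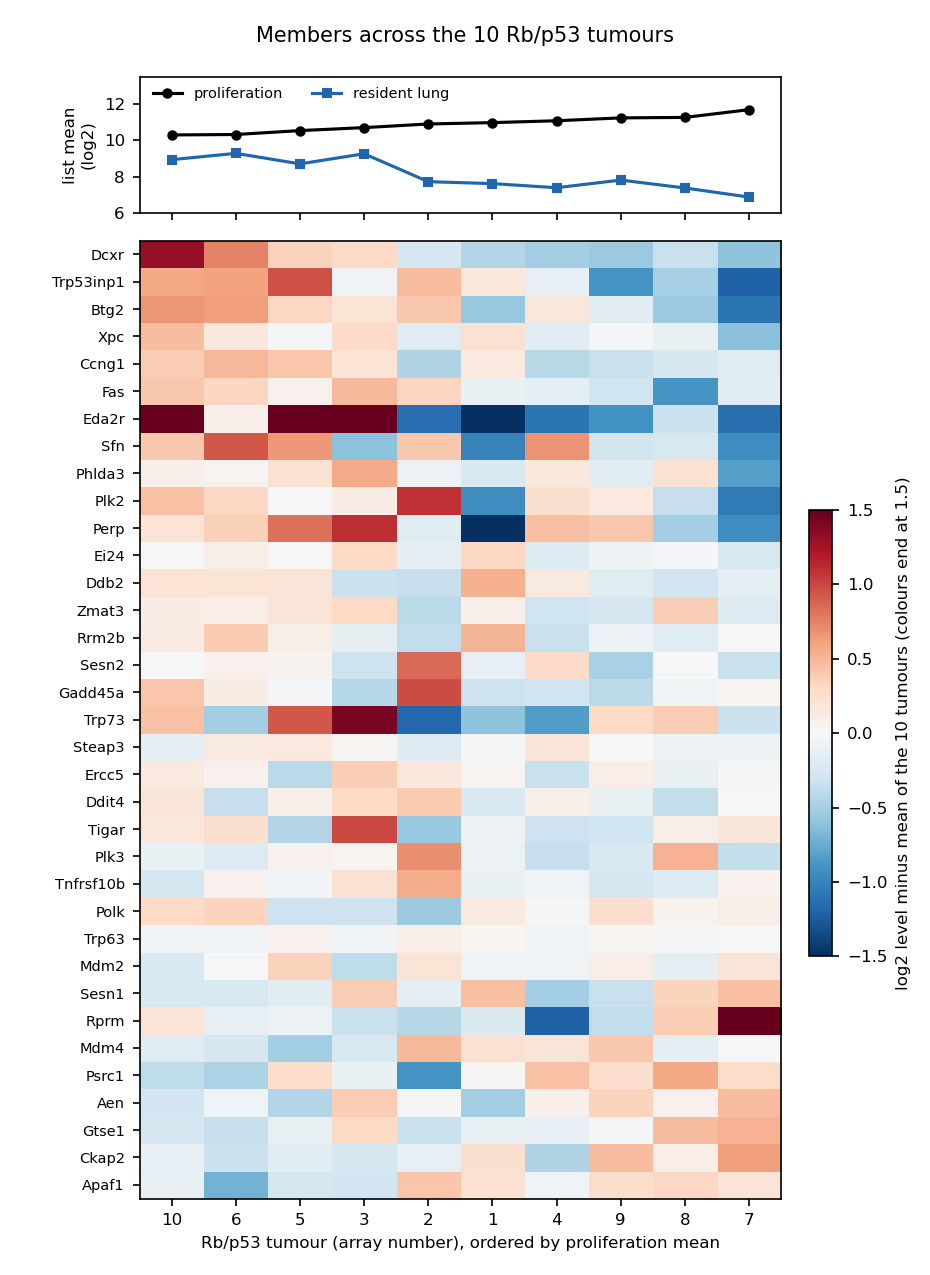
Level of the 35 measured members (rows) in the 10 Rb/p53 tumours (columns), as the log2 level minus the gene's mean over the 10 tumours. Columns run from the lowest to the highest proliferation mean and rows from the lowest to the highest correlation with it. The upper panel shows the proliferation mean (black) and the resident lung mean (blue), which falls from left to right. Dcxr, Trp53inp1 and Btg2 are red at the left and blue at the right, and tumour 2 stands out in Plk2, Sesn2 and Gadd45a.

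The members were also described over the Rb/p53 tumours by their correlation with the mean of the 13 proliferation genes, which spread over 10.30 to 11.68. Of the 35 members 25 had a negative and 10 a positive r, signs that were not counted over all genes. The slope on this mean was tested in limma over all probe sets, which called 7.12% of genes (4.48% negative and 2.64% positive) and 3 members, all negative. The called members were Dcxr (r = -0.893, rho = -0.927), Trp53inp1 (r = -0.890, rho = -0.903) and Btg2 (r = -0.885, rho = -0.891). Permutation p-values (100000 draws, two-sided, 70 relations computed) were 0.00017, 0.00054 and 0.00056 for r and 0.00032, 0.00075 and 0.00099 for rho, and limma adjusted p-values of the slopes were 0.0100, 0.0103 and 0.0123. Without tumours 7 and 10, which lay farthest from the median, r was -0.938, -0.825 and -0.750, but no slope was then called. Without tumour 7 alone, 1 negative slope was called.

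The 11 members called lower in Rb/p53 tumours, Dcxr among them, did not share 1 pattern. Xpc had r = -0.801, Ccng1 -0.765 and Fas -0.688 (limma adjusted p of the slope = 0.0613, 0.0734 and 0.129), whereas Steap3 had -0.23, Ercc5 -0.16, Polk -0.01 and Sesn1 0.39. The mitotic members had positive values, r = 0.713 for Ckap2, 0.686 for Gtse1 and 0.556 for Psrc1, and no slope among them passed (limma adjusted p for Ckap2 and Gtse1 = 0.116 and 0.148). Apaf1, uncalled against lung, also had r = 0.715 (limma adjusted p = 0.114). Mdm2, with r = 0.25, showed no call either.

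**Figure D4:**
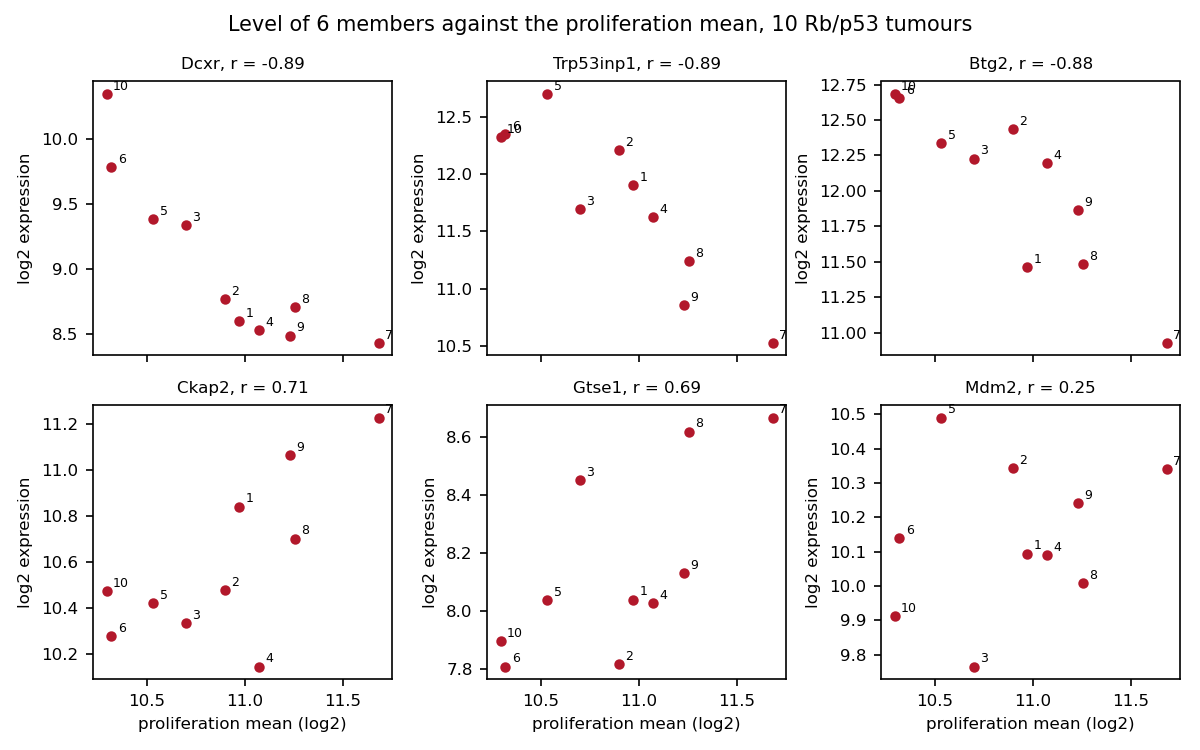
Log2 level (y axis) of 6 members against the proliferation mean (x axis) in the 10 Rb/p53 tumours, numbered. Dcxr, Trp53inp1 and Btg2 fall towards tumour 7, which is highest in proliferation, Ckap2 and Gtse1 are highest in that tumour, and Mdm2 shows no clear order.

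The proliferation mean ran against the resident lung mean over the same tumours (r = -0.901, as a description). By the resident lung mean the tumours fell into 2 sets, 4 tumours (3, 5, 6 and 10) at 8.71 to 9.29 and 6 tumours at 6.89 to 7.82. These 4 were also lowest in the proliferation mean, at 10.30 to 10.70, against 10.90 to 11.68 in the other 6. The relations of members to the 2 means therefore cannot be told apart over all 10. Against the resident lung mean 23 members had a positive and 12 a negative r, again without a count over all genes. The limma slope on the resident lung mean, which called 4.83% of genes (3.72% positive), called 1 member, Dcxr, in the positive direction (limma adjusted p = 0.0234). Within the 6 tumours of the lower set the members were set against the proliferation mean again. Tumour 7 was highest in proliferation there too, at 11.68, and lowest in the resident lung mean, at 6.89. The r values within these 6 therefore do not separate the 2 means either. There Trp53inp1 had r = -0.931 (exact permutation p = 0.00278), Btg2 r = -0.788 (exact permutation p = 0.0486) and Dcxr r = -0.672 (exact permutation p = 0.133). Gtse1 had r = 0.869 (exact permutation p = 0.00694) and Ckap2 r = 0.676 (exact permutation p = 0.135). Ccng1 had r = 0.07 (exact permutation p = 0.878) and Fas r = -0.40 (exact permutation p = 0.383). Rprm, with r = 0.44 over all 10 tumours, had r = 0.859 (exact permutation p = 0.0458), with tumour 7 far above the rest. Apaf1 had r = -0.11 (exact permutation p = 0.844) and Mdm4, with 0.49 over all 10, had r = -0.62 (exact permutation p = 0.182). These p-values are not adjusted over the 35 members compared within that set. The set holds 6 arrays picked by a gap in these same data. Whether any r differs from that over all 10 was not tested.

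Of the members, 20 were read by more than 1 probe set. Set against the brightest, 26 of their 35 other probe sets had the same call in Rb/p53 tumours against normal lung, 7 were uncalled where the brightest was called, 2 were called alone and 0 had the opposite call. In Rb/p53/p130 tumours these counts were 25, 9, 1 and 0. Psrc1 shows how much the size can depend on the probe set, with rises of 3.17, 1.42 and 0.32 in Rb/p53 tumours, the last of them uncalled and near background.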

How the data were processed

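Levels of RNA were read on Affymetrix mouse arrays, from total RNA isolated with Trizol and put through the RiboAmp kit in a pair of rounds, per the labels' protocols. Deposited were log2 levels, 1 per probe set and array, which the authors made with RMA, per the submitters' processing notes. RMA brings the arrays to nearly equal distributions, which hides a shift common to most genes.

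After 64 controls were dropped, 45037 of 45101 probe sets were tested. The probe annotation gave 1 symbol to 34945, several to 932 and none to 9160. The brightest probe set stood for each of 18193 genes. All 3 groups entered 1 limma fit (limma 3.58.1, R 4.3.3), with Benjamini-Hochberg adjustment over all probe sets and a threshold of 0.05. Slopes on list means used limma over the 10 Rb/p53 tumours, adjusted in the same way, in place of the adjustment over the members and both lists that had been planned. Errors of changes are SE. The fits were tested on simulated data. Promoters came from RefSeq (GRCm38.p6). Figures were drawn with matplotlib 3.10.9.

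The members and lists were chosen with earlier results of these data known. Relatives, inhibitors and, in each other role, the 5 members with the largest change in Rb/p53 tumours are given with their values, the others by their changes, and of each pathway list the 4 called genes with the largest change. Trp53 and Gdf15 were not analysed here. Alternatives left out each array, changed the scaling, the choice of probe sets, the prior or the samples in the fit, added the Gapdh difference as a covariate or blocked on array numbers.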

Additional observations from a re-analysis of the deposited data

Results flagged for a closer look

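Over the 10 Rb/p53 tumours, 35 members and 33 further pathway genes were examined for a tumour lying apart from the rest, meaning that its gap to the nearest tumour took up more of the range than Dixon's critical value allows. Chance alone marks about 1 in 20 genes in such a search, and 5 genes were marked. Rprm, a growth arrest gene, reached 8.62814 in tumour 7, against 6.81 in the next tumour. Tigar reached 8.25756 in tumour 3, against 7.52 in the next. Cdkn1a reached 12.4848 in tumour 2, against 11.80 in the next. The ubiquitin ligase gene Cop1 was lowest in tumour 5, at 9.97132, against 10.72 in the next. The coactivator gene Ep300 was lowest in tumour 2, at 9.67958, against 10.16 in the next.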

How the results depend on the processing

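Of the members' changes under every alternative, 2436 of 2534 values kept their side of the threshold, and their direction where called. A change of sign in a value uncalled in both fits was counted as kept. With the Gapdh difference as a covariate, 1 member was higher and 0 lower in each tumour group. Pathway genes then numbered 2 higher and 1 lower in Rb/p53/p130 tumours and 2 higher and 2 lower in Rb/p53 tumours. Over the whole array 940 genes were called in Rb/p53/p130 tumours and 1106 in Rb/p53 tumours. That difference separated both lungs from every tumour, so the covariate and the tissue cannot be told apart. Fitting the compared groups alone gave 8 higher and 11 lower members and 10 higher pathway genes in Rb/p53/p130 tumours, where 43.1% of all genes were then called. Eda2r, Sfn, Zmat3, Plk3 and Polk gained a call there, and Plk2 lost its call in Rb/p53 tumours, where 35.5% of all genes were called. With the replicate block, which rests on tumours 1 and 2 and both lungs, 6 members were lower in Rb/p53 tumours. That fit gave 5 higher and 5 lower pathway genes and 3891 called genes. Same-numbered arrays did not deviate together (r = -0.004 and -0.055). The 2 lungs deviate from their mean as mirror images, so these r cannot decide whether the numbers pair samples. Leaving out each array gave 3 to 5 higher and 4 to 9 lower members in Rb/p53/p130 tumours, 4 to 7 higher and 6 to 12 lower in Rb/p53 tumours, and 0 to 0 between genotypes. For pathway genes it gave 5 to 7 higher and 3 to 8 lower in Rb/p53/p130 tumours, and 5 to 10 higher and 5 to 9 lower in Rb/p53 tumours. Negative slopes on proliferation numbered 1 to 4, positive ones 0 to 1, and positive slopes on the resident lung mean 0 to 3, with 2 without tumour 2. On ranks, and without the 2 farthest tumours, 0 negative slopes on proliferation and 0 positive ones on resident lung were called. Usp7 turned to 0.52 in Rb/p53 tumours with the mean of its probe sets, and to 0.68 there and 0.54 in Rb/p53/p130 tumours without probe sets that can match several transcripts. Mdm4 turned to 0.46 with that filter, and Sesn1 to 0.0401 with the Gapdh covariate, both in Rb/p53 tumours. The causes were not tested.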
